A study of Homo sapiens with 24 samples.

Results

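MALAT1 and NEAT1 are neighbouring long non-coding RNA (lncRNA) genes on human chromosome 11, and their reads and accessibility were followed here in HEK293 cells that overexpressed a nuclear lamin. The members were every lncRNA interval that the deposited small RNA table names MALAT1 or NEAT1, together with the window that the ATAC-seq table places on the same interval. There were 69 such intervals, 39 for MALAT1 and 30 for NEAT1, among 155223 lncRNA intervals and 175946 features in all. Intervals of a gene overlap and share reads, so they are not independent measurements. All 69 passed the filter on low counts in both assays.

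HEK293 is an established human embryonic kidney cell line, and its genotype is labelled wild type. The 4 groups overexpressed eGFP (the control, called GFP), the A-type lamin LMNA, or a B-type lamin, LMNB1 or LMNB2. Each group had 3 replicates in small RNA-seq and 3 in ATAC-seq, 24 libraries in all. The RNA was enriched for small RNAs, and the ATAC-seq, which reads open chromatin, started from cells collected separately under the same conditions. The labels do not say whether replicates were separate cultures, so p-values measure the spread between these libraries, which may be technical.

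NEAT1 RNA builds paraspeckles, bodies inside the nucleus, and exists as a short and a long isoform that share their 5′ end. MALAT1 RNA is abundant in nuclear speckles, which hold splicing factors, and its 3′ end is made when RNase P cuts off a small tRNA-like RNA, mascRNA. Lamins form the meshwork under the inner nuclear membrane, to which inactive chromatin is attached.

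The deposited positions are on GRCh38, and starts are counted from 1. The commonest NEAT1 start was chr11 position 65422773 (7 of 30 intervals), which is 25 bases before the RefSeq NEAT1 gene (65422798 to 65445540, plus strand), and the longest ran from 65418447 to 65450118. The commonest MALAT1 starts were 65499020 (5 of 39) and 65497737 (4 of 39), and the longest ran from 65496242 to 65509110. RefSeq (GRCh38.p14) places the MALAT1 gene at 65497738 to 65506516 on the plus strand. It gives MALAT1 a pair of start sites. Their stretches are shown because the part from the first site to shortly before the second had the most open chromatin and few RNA reads. Capitals mark GGGCGG or its reverse complement in the first and TATAAA in the second.

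MALAT1 start site 1, chr11:65497488-65497787: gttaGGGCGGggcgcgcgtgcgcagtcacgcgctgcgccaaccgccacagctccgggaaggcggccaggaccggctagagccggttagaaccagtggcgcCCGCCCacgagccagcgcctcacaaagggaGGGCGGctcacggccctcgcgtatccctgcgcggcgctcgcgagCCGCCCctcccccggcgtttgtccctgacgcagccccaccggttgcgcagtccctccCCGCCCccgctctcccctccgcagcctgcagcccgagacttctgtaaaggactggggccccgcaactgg
MALAT1 start site 2, chr11:65498795-65499094: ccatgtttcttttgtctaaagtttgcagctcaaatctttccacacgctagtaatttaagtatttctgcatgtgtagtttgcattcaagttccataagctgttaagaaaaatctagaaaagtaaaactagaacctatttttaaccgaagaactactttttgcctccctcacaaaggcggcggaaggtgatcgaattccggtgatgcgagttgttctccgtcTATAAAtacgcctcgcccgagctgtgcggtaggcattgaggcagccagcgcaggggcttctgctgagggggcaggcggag

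Each stretch runs from 250 bases before the start to 50 bases after it. The first is rich in G and C (73.7%) and holds 37 CpG dinucleotides, against medians of 58.7% and 14 over 35116 RefSeq promoters. It contains GGGCGG 5 times, counting both strands, and no TATAAA. The second is 46.0% G and C, holds 14 CpG dinucleotides and no GGGCGG, and has a single TATAAA that begins 30 bases before the start. Over all promoters, 45.0% contain GGGCGG and 11.5% contain TATAAA on either strand. The motifs CCAAT and CACGTG, searched on both strands and found in 34.6% and 7.26% of promoters, are in neither stretch. These matches describe the letters only. No RefSeq promoter entry matched NEAT1.

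The small RNA tables summed to 132.5 to 195.1 M counts per library (M, counts divided by 1000000) and the ATAC tables to 156.0 to 290.2 M, over features that overlap. The longest interval of each gene held 1316 to 3217 small RNA counts and 2625 to 12909 ATAC counts. GFP replicate 3 stood apart in small RNA: 4 microRNAs abundant in kidney lines (MIR10A, MIR10B, MIR196B and MIR21) summed to 330.5 counts per 1000000 counts (CPM) there. The lowest GFP library gave 51.1 CPM, under every other group, and the sum was 79.9 to 140.0 CPM in LMNA, 96.2 to 113.8 in LMNB1 and 58.1 to 66.5 in LMNB2. Across 11 microRNAs of other cell types the sum was 0.416 to 2.24 CPM, and only MIR9-1 and MIR200C passed the count filter; the blood, muscle and neuron microRNAs MIR223, MIR1-1 and MIR124-1 had means of 0.3, 0.2 and 0.1 counts. A called difference checked the labels for LMNB2 in small RNA and for LMNA in ATAC-seq. MIR7108, which lies inside LMNB2, was at 23.5 to 26.3 CPM in the LMNB2 small RNA libraries and 0.00735 to 0.0344 CPM in GFP, and lnc-SEMA4A-1, inside LMNA, was at 4470 CPM in LMNA ATAC-seq (mean) and 11.1 CPM in GFP. In small RNA lnc-SEMA4A-1 did not pass the filter (0.0189 CPM in LMNA and 0.0236 in GFP), so the LMNA small RNA labels were not checked. Among 4 features picked to check labels, the largest ATAC-seq log2 difference of LMNB2 from GFP was 10.89, not called by edgeR. LMNB1-DT, next to LMNB1, differed from GFP by -0.02 (log2) in LMNB1 small RNA, and lies outside the coding gene, so it checks nothing.

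NEAT1 read levels were higher in the LMNB2 libraries than in those of every other group, along the whole gene. How many intervals were called depended on the setting. Against GFP, 20 of 30 NEAT1 intervals rose (edgeR quasi-likelihood test, Benjamini-Hochberg adjusted p under 0.05 over 33893 features), where 1.91% of all features rose, 0.752% fell and 2.66% changed in either direction. The log2 fold changes of the 30 intervals had a median of 0.68 and ran from 0.55 to 0.80, beside a median of -0.04 over all features. Their adjusted p ran from 0.0199 to 0.0725 by edgeR. All 30 had an unadjusted p under 0.05, as had 6761 of 33893 features. In all 30 intervals each LMNB2 library lay above each GFP library, which held for 12.1% of features.

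In the longest NEAT1 interval the GFP libraries gave 13.5, 13.2 and 11.6 CPM (12.8 ± 1.01, SD, n = 3). The LMNA libraries gave 12, 12.5 and 11.7 CPM and the LMNB1 libraries 12.3, 10.7 and 10.8 CPM. The LMNB2 libraries gave 19.0, 20.6 and 21.1 CPM (20.2 ± 1.12, SD, n = 3). The LMNB2 libraries lay above the other 9, and the other 3 groups overlapped.

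Against GFP the longest interval was 1.58-fold higher, a log2 fold change of 0.66 ± 0.18 (SE; 95% interval 0.27 to 1.05), and this narrowly missed the threshold (edgeR adjusted p = 0.0618). By DESeq2 the same difference was 0.68 with an adjusted p of 1.21e-05, and without GFP replicate 3 it was 0.65 with an edgeR adjusted p of 0.0233. It stayed uncalled by edgeR with total counts, with only the libraries compared and without any 1 LMNB2 library. Against LMNA it rose by 0.74 ± 0.18 (edgeR adjusted p = 0.0468) and against LMNB1 by 0.84 ± 0.18 (edgeR adjusted p = 0.0252). The call against LMNA was lost without LMNB2 replicate 2, and the call against LMNB1 with total counts.

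**Figure D1:**
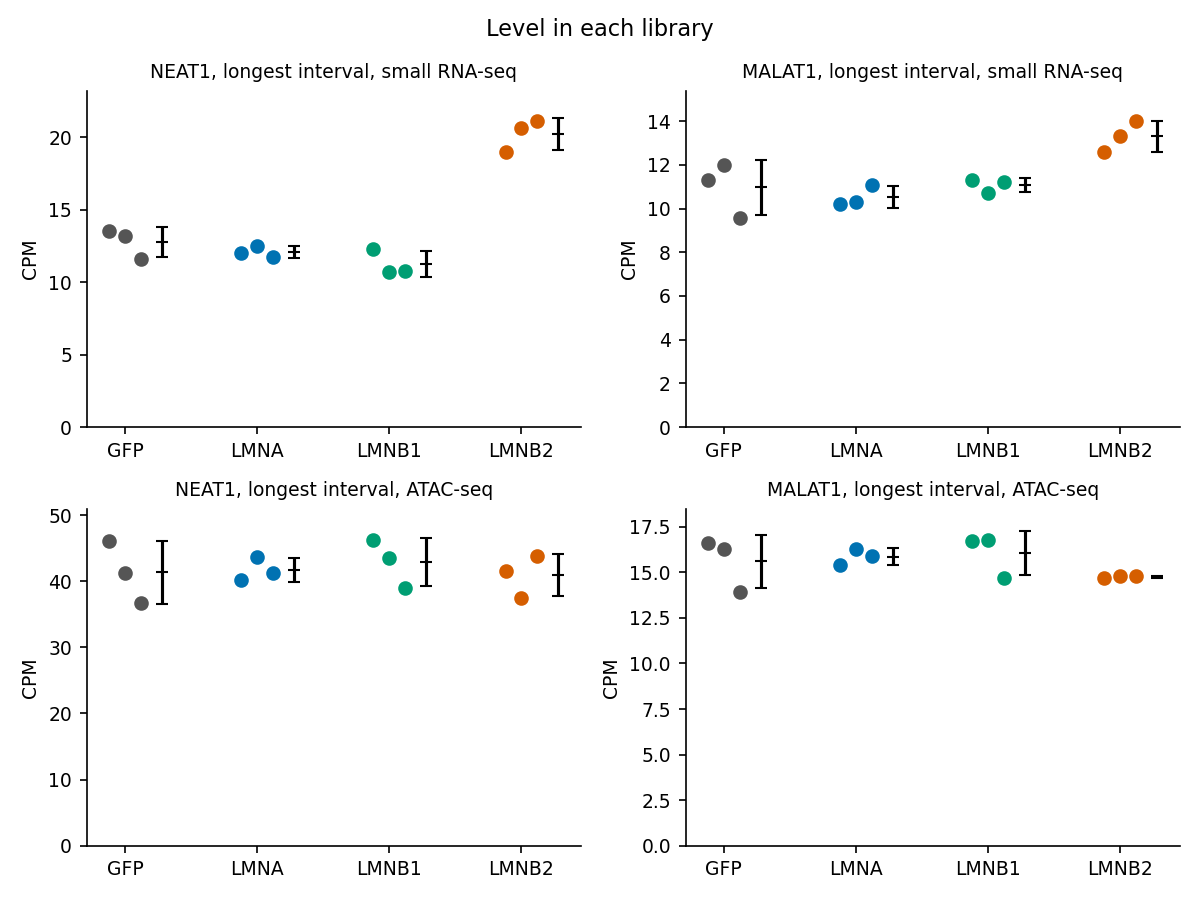
CPM of the longest NEAT1 and MALAT1 intervals in each library (points; the bar beside them is the mean ± SD, n = 3) by group, small RNA-seq above and ATAC-seq below. The 3 LMNB2 libraries sit between 19.0 and 21.1 CPM for NEAT1 RNA, above all others, while the ATAC-seq groups overlap.

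The lowest p against GFP belonged to chr11:65422749-65424852, which begins just before the RefSeq start and covers the 5′ end common to both isoforms. GFP gave 1.06, 1.23 and 1.15 CPM, LMNA 1.17, 1.08 and 0.93, LMNB1 1.04, 0.985 and 0.911, and LMNB2 2.02, 1.89 and 2.06. It was 1.73-fold higher in LMNB2 than in GFP (log2 0.79 ± 0.15, edgeR adjusted p = 0.0199) and 2.02-fold higher than in LMNB1 (log2 1.01 ± 0.15, edgeR adjusted p = 0.00279). Again the LMNB2 libraries did not overlap any other.

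Next to it, chr11:65424306-65426551 covers the rest of the shared part. GFP gave 2.30, 2.48 and 2.03 CPM, LMNA 1.90, 2.16 and 1.88, LMNB1 2.20, 1.97 and 2.13, and LMNB2 3.33, 3.57 and 3.71. The log2 fold change against GFP was 0.64 ± 0.16 (edgeR adjusted p = 0.0464).

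Far downstream, chr11:65438249-65444154 lies in the part that only the long isoform has. GFP gave 2.64, 2.29 and 2.34 CPM, LMNA 2.43, 2.24 and 2.11, LMNB1 2.25, 2.12 and 1.86, and LMNB2 3.56, 3.99 and 3.83. It rose by the same 0.64 ± 0.17 on the log2 scale (edgeR adjusted p = 0.0465). The first pair of these stretches overlap in part and the last shares no base with them, and the LMNB2 libraries were the highest in each.

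The interval with the most reads per kilobase, chr11:65425555-65426410, differed least. GFP gave 1.46, 1.55 and 1.14 CPM and LMNB2 1.84, 2.09 and 2.18, without overlap, and the log2 difference of 0.55 ± 0.16 missed the threshold (edgeR adjusted p = 0.0725).

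For the other lamins no NEAT1 interval was called for LMNA against GFP by edgeR, nor any of all 33893 features (0.0% called; 1850 features had an unadjusted p under 0.05, 1 of them a NEAT1 interval, and DESeq2 called 24). The NEAT1 median was -0.11, from -0.37 to -0.03; LMNA libraries lay below GFP without overlap in 2 of 30 intervals (5.34% of features) and above in 0 (4.16%). For LMNB1 against GFP edgeR again called 0 of 30, with no unadjusted p under 0.05 and 0.0384% of features called, and the median was -0.18. LMNB1 lay below GFP without overlap in 7 of 30 (5.29% of features) and above in 0 (4.76%). The 95% interval of the longest interval's log2 fold change was -0.47 to 0.31 for LMNA and -0.57 to 0.21 for LMNB1. Both lie below the LMNB2 estimate of 0.66, but the 95% interval of that estimate overlaps the one for LMNA. All of these comparisons share the GFP libraries.

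The lamins were also compared with each other. Against LMNA, all 30 NEAT1 intervals rose in LMNB2 (edgeR, median log2 0.83, 0.74 to 0.97; 1.74% of features rose and 2.01% changed), and against LMNB1 all 30 rose as well (edgeR, median 0.84, 0.64 to 1.06; 1.82% rose, 0.366% fell and 2.19% changed). In the test of the 4 groups together, 30 of 30 NEAT1 intervals passed by edgeR where 1.68% of features did. LMNB1 against LMNA gave 0 of 69 by edgeR (0.0118% of features called; 1 MALAT1 interval had an unadjusted p under 0.05). There LMNB1 lay above LMNA without overlap in 4 intervals (6.07% of features) and below in 1 (7.51%). By levels, the order was LMNB2 first, then GFP, LMNA and LMNB1, whose libraries overlapped. These comparisons share libraries, so their calls are not separate evidence.

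The count of NEAT1 calls depended on single libraries. Without any 1 of the LMNB2 libraries the count against GFP was 0, without GFP replicate 2 it was 11, and DESeq2 called 30 of 30; the log2 fold change of the longest interval stayed between 0.63 and 0.91. Against LMNA the NEAT1 count was 0 to 10 without any 1 library (0 without LMNB2 replicate 2) and 2 with total counts, and against LMNB1 10 to 12 and 0, while DESeq2 called 30 of 30 in both.

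No MALAT1 interval was called against GFP. None of the 39 passed the threshold for LMNB2 (lowest edgeR adjusted p = 0.11; 2.66% of all features were called), and DESeq2 also called 0. An unadjusted p under 0.05 was found for 7 of 39, and for 6761 of 33893 features, so the MALAT1 share is near the background. The median log2 fold change was 0.28, but the intervals spread from -0.15 to 0.58. In 30 of 39 intervals the LMNB2 libraries lay above the GFP libraries, against 12.1% of features.

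In the longest MALAT1 interval GFP gave 11.3, 12 and 9.59 CPM (11 ± 1.24, SD, n = 3). LMNA gave 10.2, 10.3 and 11.1 CPM, LMNB1 11.3, 10.7 and 11.2, and LMNB2 12.6, 13.3 and 14.0 (13.3 ± 0.671, SD, n = 3). The LMNB2 libraries were the highest, by a smaller margin than at NEAT1. The log2 fold change against GFP was 0.28 ± 0.18 (95% interval -0.11 to 0.66, edgeR adjusted p = 0.412).

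The spread among MALAT1 intervals followed position. At the 5′ end, chr11:65499017-65499810 had the most reads per kilobase. GFP gave 2.11, 2.13 and 1.19 CPM, LMNA 1.47, 1.60 and 1.87, LMNB1 1.73, 1.85 and 1.91, and LMNB2 2.51, 2.62 and 2.89. GFP replicate 3 was low there, and no LMNB2 library overlapped another group. The log2 difference from GFP was 0.56 ± 0.20 (edgeR adjusted p = 0.143).

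At the 3′ end, chr11:65504494-65506493 gave 2.01, 2.31 and 1.84 CPM in GFP and 1.71, 1.97 and 1.94 in LMNB2. The groups overlapped, with a log2 difference of -0.13 ± 0.16 (edgeR adjusted p = 0.684). The 4 intervals that start at or after 65504471 gave -0.15 to -0.13, which turned to 0.09 to 0.11 when libraries were scaled by total counts alone. That scaling also moved the median of all features from -0.038 to 0.191.

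With edgeR on all 12 libraries and TMM scaling, 1 MALAT1 interval was called between a pair of groups: chr11:65500198-65500738 rose in LMNB2 against LMNB1 (log2 0.71 ± 0.17, edgeR adjusted p = 0.0339; 1 of 39 intervals, 2.19% of features). That share is near the background. Without any 1 library of those groups the MALAT1 count for LMNB2 against LMNB1 was 0, DESeq2 called 3, and a fit of only the libraries compared called 11. GFP gave 0.859, 1.01 and 0.783 CPM, LMNA 1.02, 0.856 and 0.877, LMNB1 0.839, 0.575 and 0.702, and LMNB2 1.24, 1.08 and 1.17. LMNB1 was low there, and LMNB2 overlapped none of the others. LMNB2 lay above LMNB1 without overlap in 30 of 39 MALAT1 intervals, against 15.6% of features, and below in 2 (14.1% of features). It lay above LMNA in 34 (14.6% of features) and below in 3 (13.5%). Against LMNA, edgeR called 0 of 39 (2.01% of features), DESeq2 5 and a fit of only the libraries compared 8; 10 of 39 had an unadjusted p under 0.05, as did 5575 of 33893 features. In the 4-group test edgeR called 0 of 39 (1.68% of features), DESeq2 3 and edgeR without GFP replicate 3 called 6. There 6 of 39 had an unadjusted p under 0.05, as did 5379 of 33893 features, a share near the background. For LMNA and for LMNB1 against GFP, edgeR called 0 of 39 and none had an unadjusted p under 0.05; the medians were -0.06 and 0.01.

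**Figure D2:**
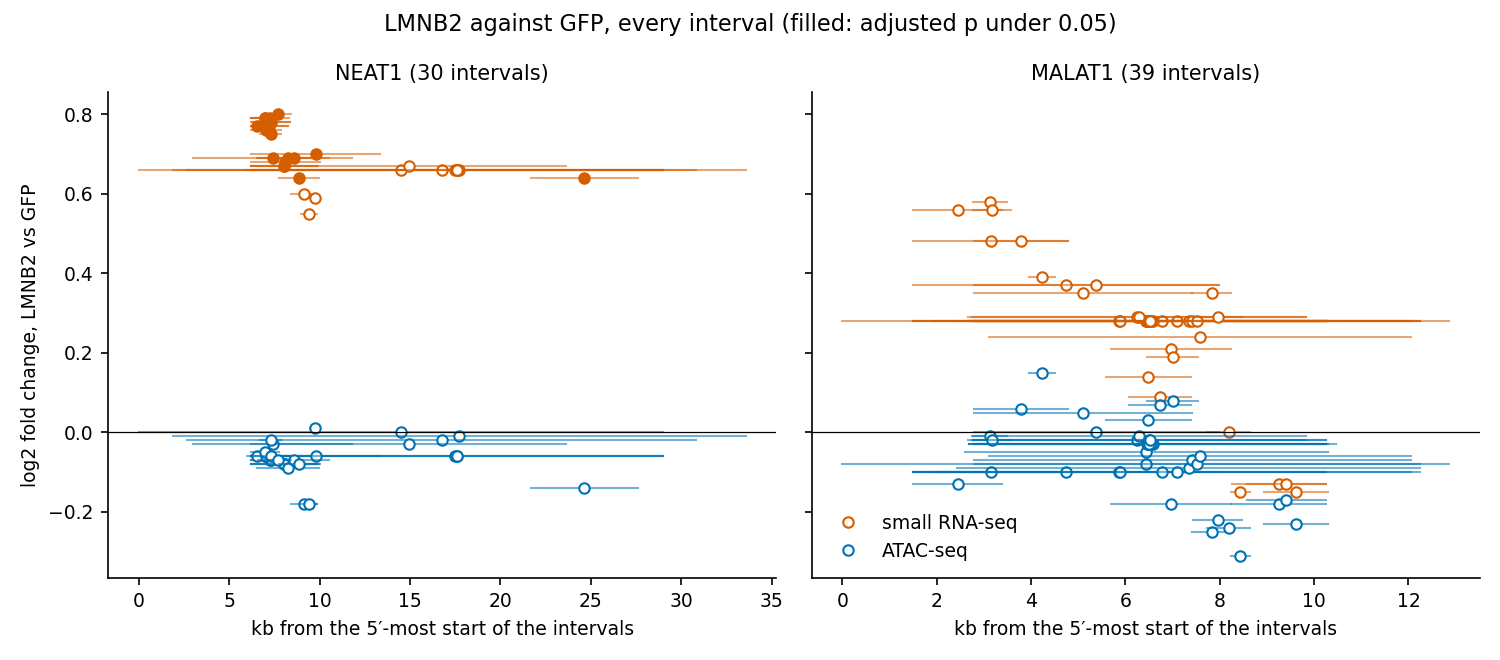
Log2 fold change of LMNB2 against GFP for every interval (line: its extent, point: its middle; filled where the adjusted p was under 0.05) by kb from the 5′-most start, in small RNA-seq and ATAC-seq. NEAT1 RNA points lie between 0.55 and 0.80, MALAT1 RNA points step down from 0.58 to -0.15, and ATAC-seq points lie between -0.31 and 0.15.

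Nested intervals were subtracted to read parts of each gene that share no interval. A part is the count of the longer interval less that of the shorter, so a read that crosses a boundary is not counted on both sides. MALAT1 was split at the starts and ends that its intervals share. Between the start sites, from 65497737 to 65499019, the libraries held 0 to 8 reads, or 0.0222 CPM per kb in GFP. The 5′ part, 65499020 to 65501032, held 1.96 ± 0.362 CPM per kb in GFP (SD, n = 3), the middle part up to 65504231 held 1.46 ± 0.112, and the 3′ part up to 65506494 held 1.02 ± 0.115. Beyond that, to 65508295, it was 0.0059. Among these parts, reads thus lay almost wholly between 65499020 and 65506494, bounds near the second start site and the gene's annotated end. Where reads begin or stop inside a part was not measured.

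In LMNB2 the 5′ part held 2.73 ± 0.165 CPM per kb, the middle part 1.76 ± 0.0994 and the 3′ part 0.931 ± 0.0745 (SD, n = 3). The differences from GFP were 0.50, 0.27 and -0.12 on the log2 scale. LMNB2 libraries lay above GFP in the first pair of parts (exact two-sided permutation p = 0.1 each, the smallest that 3 against 3 allows) and overlapped in the last (p = 0.6).

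The log2 ratio of 5′ to 3′ reads within a library, which no scaling affects, was 1.48, 1.23 and 1.44 in LMNB2 (1.39 ± 0.13, SD, n = 3). GFP gave 1.01, 0.76 and 0.52 (0.76 ± 0.24), LMNA 0.63 ± 0.11 and LMNB1 0.73 ± 0.06. LMNB2 lay above each other group (exact two-sided permutation p = 0.1 each), by 0.62 over GFP, and by 0.50 without GFP replicate 3. The ratio of middle to 3′ reads was 1.42 ± 0.05 in LMNB2, also without overlap; GFP gave 1.03 ± 0.12, LMNA 0.90 ± 0.06 and LMNB1 1.12 ± 0.07. These ratios were chosen after the values were seen.

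Along the 5 parts of NEAT1 from 65422773 to 65445565 the LMNB2 excess over GFP was 0.80, 0.64, 0.73, 0.65 and 0.59 (log2), and LMNB2 lay above GFP in each (exact permutation p = 0.1 each). GFP held 0.429, 1.01, 0.539, 0.655 and 0.236 CPM per kb in these parts. The part shared by both isoforms, up to 65426557, held 0.773 ± 0.061 CPM per kb in GFP and 1.24 ± 0.0633 in LMNB2. The part of the long isoform alone held 0.516 ± 0.0441 and 0.813 ± 0.0462. Their log2 ratio of reads was -1.72 ± 0.04 for LMNB2, which overlapped the -1.74 ± 0.10 of GFP; LMNA gave -1.85 ± 0.04 and LMNB1 -1.68 ± 0.03. Upstream of the gene, from 65416557 to 65422528, reads were near absent, with 5 to 13 per library.

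**Figure D3:**
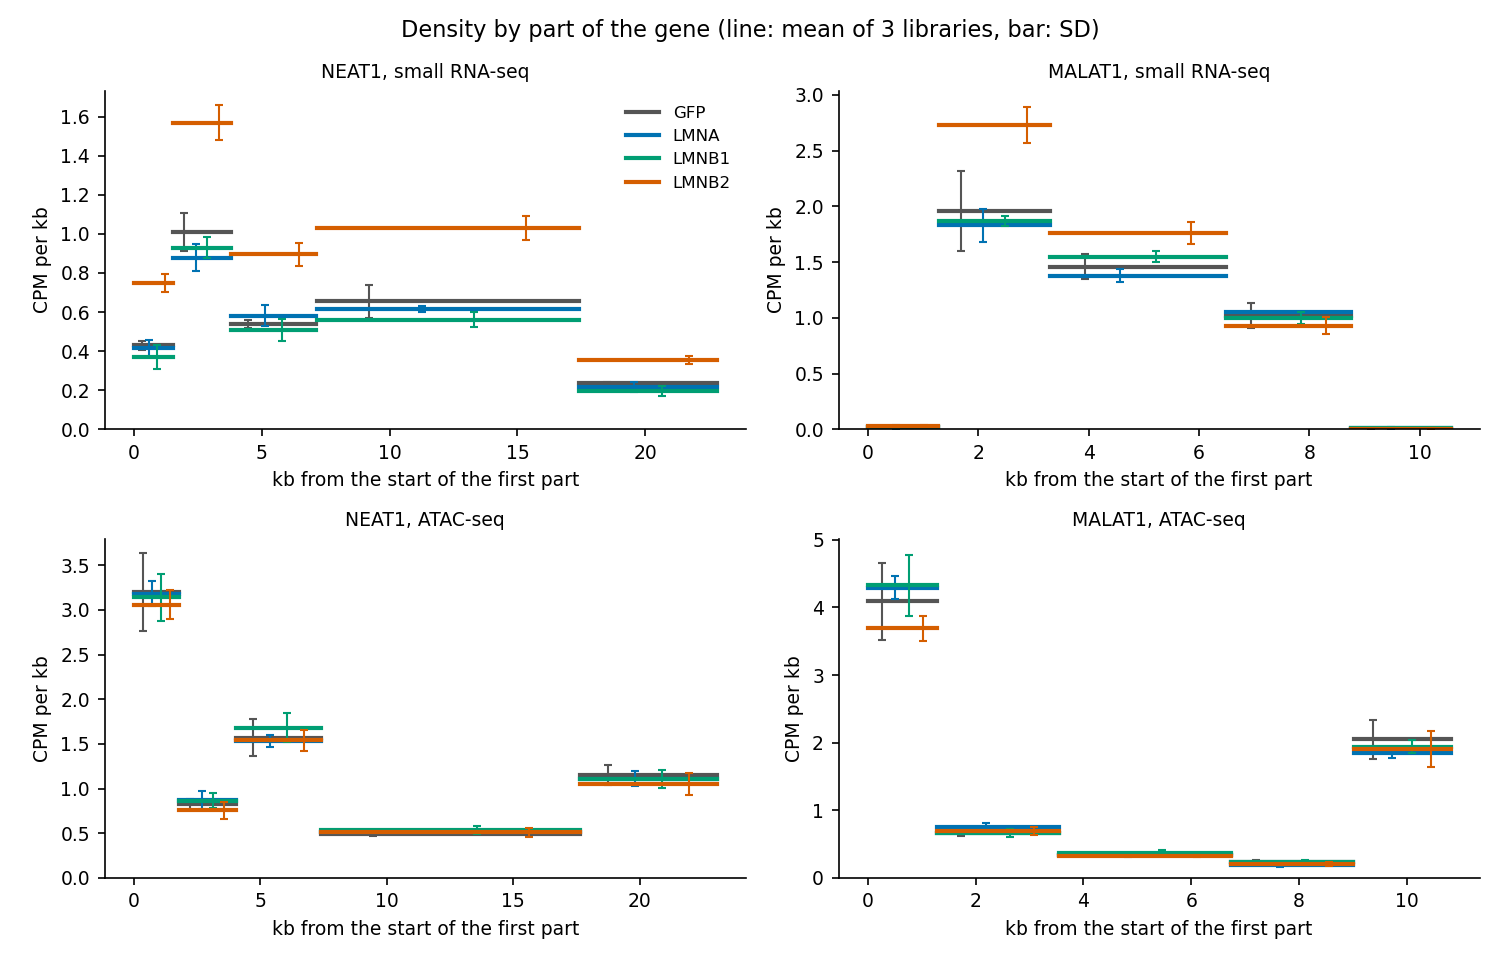
Mean CPM per kb (line; bar: SD, n = 3) in consecutive parts of NEAT1 and MALAT1, small RNA-seq above and ATAC-seq below, by kb from the start of the first part. LMNB2 RNA is above GFP in all 5 NEAT1 parts and in MALAT1 without overlap in the 5′ and the middle part, and MALAT1 accessibility is highest in the first part (4.09 CPM per kb in GFP), where RNA reads are at 0.0222.

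Setting the genes against each other, the log2 ratio of MALAT1 to NEAT1 CPM (longest intervals) was -0.59, -0.62 and -0.60 in LMNB2 and -0.26, -0.14 and -0.28 in GFP. LMNA gave -0.20 ± 0.10 and LMNB1 -0.03 ± 0.08. LMNB2 lay below each of the others (exact two-sided permutation p = 0.1 each), by 0.38 under GFP. With the interval richest in reads of each gene the LMNB2 difference from GFP was 0.04 (exact permutation p = 1.0); that MALAT1 interval lies at its 5′ end.

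**Figure D4:**
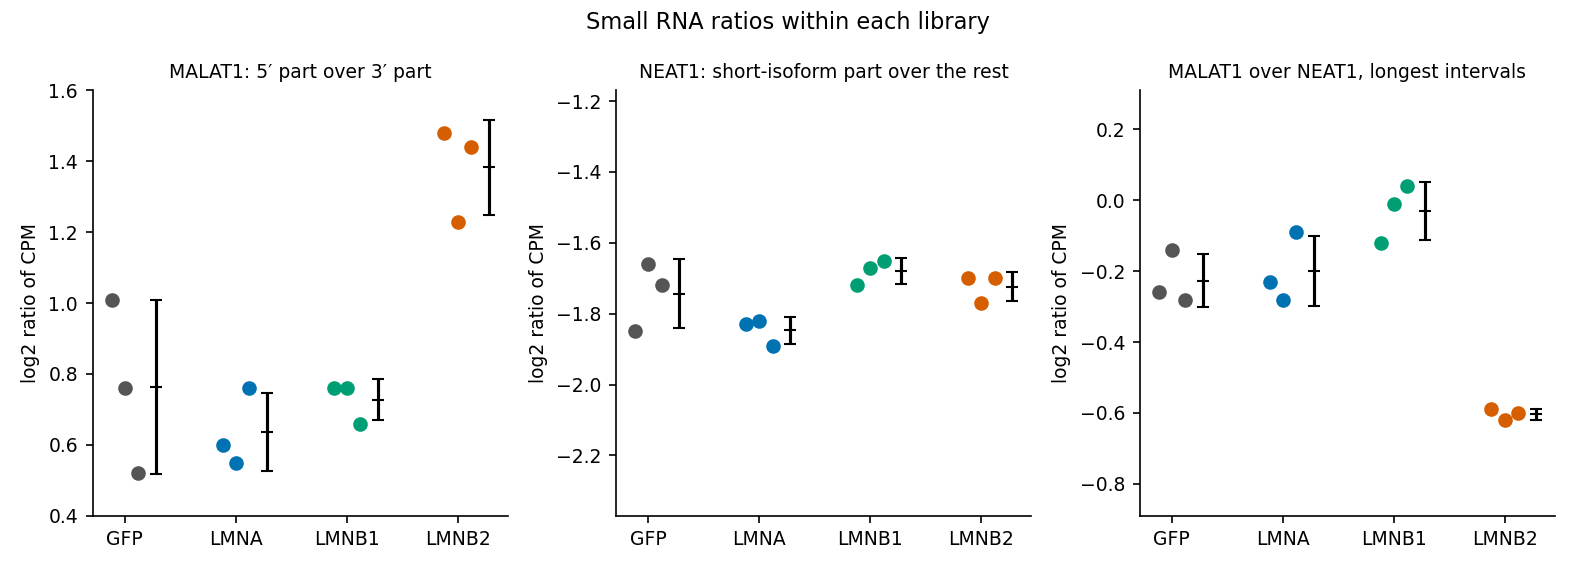
Log2 ratios of CPM within each small RNA library (points; bar: mean ± SD, n = 3) by group: MALAT1 5′ part over 3′ part, NEAT1 shared part over the rest, and MALAT1 over NEAT1. The axes span the same width; LMNB2 stands above the others in the first (1.23 to 1.48), overlaps GFP in the second, and is below in the third (-0.62 to -0.59).

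Per kilobase both genes were among the higher lncRNAs. In GFP the longest MALAT1 interval held 0.852 CPM per kb, above 96.5% of 30564 tested lncRNA intervals, and that of NEAT1 held 0.403, above 95.3%. The median interval held 0.00493. The 2 genes correlated across the 12 libraries (Pearson r = 0.87 of log2 CPM, a description: the libraries share the 4 groups). The tested features on other loci most like NEAT1, out of 16835 compared, were lnc-BUB3-4 (r = 0.99), LINC02641 (0.99) and NONHSAG007089.2 (0.98), which overlap on chromosome 10. Those most like MALAT1 were lnc-NFS1-1 (0.97) and ENSG00000131051.23 (0.97), which overlap on chromosome 20, and lnc-KCNE1B-3 (0.96). The most opposed were MIR320A for NEAT1 (-0.94) and lnc-ANKRD46-3 for MALAT1 (-0.94), and GRPEL2-AS1 for both (-0.93).

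The RNAs made from the ends of these genes are small. RF01684, Rfam's family of mascRNA and its NEAT1 counterpart, is annotated at the MALAT1 3′ end (65506092 to 65506198). The GFP libraries held 20, 33 and 29 reads, those of LMNA 41, 48 and 55, of LMNB1 42, 53 and 48, and of LMNB2 22, 32 and 21. In CPM, LMNB2 (0.133 to 0.205) overlapped GFP (0.163 to 0.243) while LMNA (0.255 to 0.331) and LMNB1 (0.254 to 0.324) lay above every GFP and LMNB2 library. Over all features, LMNA lay above GFP without overlap in 4.16% and LMNB1 in 4.76%. LMNB2 lay below LMNA in 13.5% and below LMNB1 in 14.1%. The log2 difference from GFP was 0.62 ± 0.21 for LMNA (edgeR adjusted p = 0.882), 0.54 ± 0.21 for LMNB1 (edgeR adjusted p = 0.861) and -0.23 ± 0.22 for LMNB2 (edgeR adjusted p = 0.608), none of them called. LMNB2 was lower than LMNA (log2 -0.85 ± 0.21, edgeR adjusted p = 0.0461) and was -0.77 ± 0.21 against LMNB1 (edgeR adjusted p = 0.0668). In the comparison with LMNA edgeR called 2.01% of all features, and 0.268% of all features were called lower. The call for RF01684 was close to the threshold and rested on 20 to 55 reads per library. Whether it holds under other settings was not tested. Reads of MALAT1 itself that cover this site are counted there too.

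The RF01684 site at the NEAT1 end held 0 to 2 reads, and MIR612, a microRNA gene inside NEAT1, held 1 to 8 in its precursor interval. RPPH1, the RNA of RNase P, was not called by edgeR in LMNB2 against GFP (log2 0.17 ± 0.20, adjusted p = 0.68).

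Other annotations on the same ground share these reads. TALAM1, the antisense RNA of MALAT1, held 102 to 103% of the counts of the MALAT1 interval from 65499355 to 65508295 in every library, so the table does not separate the strands. Of 13 non-member features that overlap NEAT1, 9 passed the count filter and 3 rose in LMNB2 against GFP by edgeR, with log2 fold changes of 0.59 to 0.79 over the 9. Of 17 that overlap MALAT1, 14 passed and 0 were called (-0.23 to 0.74). The 34 other features within 50000 bases held means of 0.0 to 6.5 counts, and none passed the filter.

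Other lncRNAs were taken from a list of 20 drawn up for roles in the nucleus or on chromatin. Whether each has such a role was not checked. Of these, 19 were named in the table and 15 passed the filter. GAS5 is a host gene of small nucleolar RNAs, whose reads can count in its interval. For LMNB2 against GFP edgeR called 0 of 15, too few members to read against the 2.66% of features called, and the median was -0.03, from -0.65 (GAS5) to 0.30 (DANCR). TUG1 gave 0.19 ± 0.18 and KCNQ1OT1, which silences its imprinted neighbours, 0.03 ± 0.18. In both of these LMNB2 and GFP overlapped.

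No difference in chromatin accessibility between groups was called at either gene. In ATAC-seq edgeR called 0 of 69 windows in each of the 3 lamin comparisons with GFP, none had an unadjusted p under 0.05, and DESeq2 called 0 as well. Among all 163786 windows, 0.000611% were called for LMNA, 0.00305% for LMNB1 (0.00183% higher, 0.00122% lower) and 0.00244% for LMNB2 (0.00122% in each direction). For LMNB2 against GFP the median log2 fold change was -0.06 for NEAT1 (-0.18 to 0.01) and -0.06 for MALAT1 (-0.31 to 0.15). Between lamins 0 of 69 were called by edgeR too, and 0 in the test of the 4 groups together (0.0421% of windows). For LMNB1 against LMNA 0.223% of windows were called (0.00183% higher, 0.221% lower), and for LMNB2 against either other lamin 0.00305% (0.00122% higher, 0.00183% lower). The unadjusted p was under 0.05 for 3 of 69 windows in LMNB2 against LMNA, where it was for 11739 of all 163786, and for 6 of 69 in LMNB2 against LMNB1, where it was for 8159.

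Over the longest NEAT1 interval GFP gave 46.1, 41.2 and 36.7 CPM, LMNA 40.2, 43.7 and 41.2, LMNB1 46.3, 43.5 and 39.0, and LMNB2 41.5, 37.5 and 43.8. The groups overlapped throughout. The log2 difference of LMNB2 from GFP was -0.01 ± 0.07 (95% interval -0.17 to 0.14). Over MALAT1 GFP gave 16.6, 16.3 and 13.9 CPM, LMNA 15.4, 16.3 and 15.9, LMNB1 16.7, 16.8 and 14.7, and LMNB2 14.7, 14.8 and 14.8. That difference was -0.08 ± 0.06 (95% interval -0.21 to 0.05).

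Accessibility peaked where RNA reads did not. The part from the first MALAT1 start site to shortly before the second, 65497612 to 65498894, held 4.09 ± 0.568 ATAC CPM per kb in GFP. It does not separate the first site from the bases just before the second. The next part, 65498895 to 65501157, includes the second start site and held 0.668 ± 0.0425 in GFP. The RNA reads of the 5′ part lie within it. In the first of these parts LMNB2 held 3.69 ± 0.182 and overlapped GFP, with a log2 difference of -0.14 (exact permutation p = 0.4). LMNB2 lay below LMNA and LMNB1 there (-0.22 and -0.23, exact permutation p = 0.1 each). Over all windows, LMNB2 lay below LMNA without overlap in 8.49% and below LMNB1 in 5.24%. At NEAT1 the first part held 3.20 ± 0.436 in GFP and 3.06 ± 0.162 in LMNB2. In GFP the longest windows of MALAT1 (1.19 CPM per kb) and NEAT1 (1.29) lay above 92.6% and 93.2% of 151466 lncRNA windows.

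Flanks of 500, 5000 and 50000 bases on both sides of every window gave 0 calls by edgeR for either gene and each lamin against GFP, where 0 to 0.067% of all flanks of a kind were called. The unadjusted p was under 0.05 for up to 14 flanks of a gene in a comparison. Those 14 were among the 39 right flanks of 500 bases of MALAT1 in LMNA, where it was for 6208 of all 116457. The median log2 fold change over the 39 was -0.26. Flanks of intervals that end close together share reads. The log2 ratio of the longest window to its 50000-base flanks was 1.05, 1.07 and 1.03 for NEAT1 in GFP and 1.01, 0.99 and 1.05 in LMNB2. For MALAT1 it was 0.87, 0.99 and 0.90 in GFP and 0.79, 0.91 and 0.80 in LMNB2. LMNB2 overlapped GFP at both genes, while for NEAT1 LMNA lay below GFP (-0.04, exact permutation p = 0.1). Over 5000-base flanks NEAT1 in LMNB2 lay below GFP without overlap (1.01 ± 0.02 against 1.14 ± 0.07, exact permutation p = 0.1), and below LMNB1 by a log2 difference of -0.10 (exact permutation p = 0.1). The share of ATAC counts on the mitochondrial chromosome was 39.9 to 47.5% in GFP and 24.5 to 30.7% in LMNB2, and its part in these values was not tested beyond a fit on nuclear windows alone, which also called 0 of 69.

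The lncRNA share of small RNA counts was 79.4 to 86.5% in GFP and 77.9 to 78.8% in LMNB2, so the make-up of the libraries moved with the group; scaling by features that are not lncRNA gave 0.71 for the longest NEAT1 interval (edgeR adjusted p = 0.079) and 12 NEAT1 calls. In these bulk libraries more cells with NEAT1 RNA and more NEAT1 RNA per cell cannot be told apart. The RNA was enriched for small RNAs, so a read inside these long transcripts may come from a fragment, and fragment and full-length RNA cannot be told apart.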

How the data were processed

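Small RNA-seq and ATAC-seq of HEK293 cells in 4 groups gave 24 libraries, 12 per assay. The deposited tables hold raw read counts per non-coding feature, made by the authors on GRCh38, per the submitters' processing notes; the aligner, the counting tool and its strand setting are not given in the sources used here. ATAC windows were 125 bases wider on each side, and flanks began 350 bases outside. All columns were mapped to samples by name.

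From the counts, edgeR 4.0.16 (R 4.3.3; filterByExpr, TMM, robust quasi-likelihood test, prior count 2) was fitted to the 12 libraries of an assay, with Benjamini-Hochberg adjustment over all tested features and each kind of flank apart; 95% intervals use its degrees of freedom. Levels are CPM on TMM library sizes. Single values were compared by exact permutation tests of 3 against 3 libraries, which cannot go below 0.1. The fit was tested on simulated data. DESeq2 1.42.0, other scalings, filters and left-out libraries were alternatives.

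Members and lists were chosen with earlier results of these data known. Values per library are given for the longest and the most read-dense interval of each gene and for up to 4 called intervals by lowest p, leaving out near-identical ones; other features were named by position within 50000 bases, by list or by likeness.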

Additional observations from a re-analysis of the deposited data

How the results depend on the processing

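The direction of the NEAT1 difference between LMNB2 and GFP held under every alternative run (log2 0.63 to 0.91 for the longest interval), while the number of calls did not. Of 69 intervals, 20 were called by edgeR for LMNB2 against GFP, but 0 with total counts, 0 with only the libraries compared, 0 at an adjusted p under 0.01, 0 at a log2 change of at least 1, 11 with the replicate block, 12 with TMM factors from features that are not lncRNA, and 0 to 29 without 1 library. Against LMNA the count of 30 became 2 with total counts, 8 at 0.01, 0 at a log2 change of 1 and 0 to 10 without 1 library. Against LMNB1 the count of 31 became 0, 11, 9 and 10 to 12 under the same settings. In the 4-group test the count of 30 became 1 with total counts, 19 with the replicate block, 11 at 0.01 and 1 to 36 without 1 library. Leaving out a library also lowers the number of samples; otherwise the cause was not tested. Of all 901 features called for LMNB2 against GFP 71.7% were higher, against 99.6% of 282 with total counts and 81.7% of 798 with TMM factors from features that are not lncRNA; 1745 were called with no count filter and 21 with only the libraries compared. Same-numbered libraries of different groups had correlations of -0.04 to 0.23 in small RNA and -0.08 to 0.19 in ATAC-seq. Libraries with different numbers had -0.21 to 0.07 and -0.15 to 0.09. In small RNA 8 of 12 libraries correlated best with their own number, and in ATAC-seq 6 of 12. Whether replicate numbers pair libraries was not settled.

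Some small log2 differences of the longest intervals, none called, turned sign. In small RNA, MALAT1 in LMNA against GFP ran from -0.09 to 0.03 without 1 library (0.03 without GFP replicate 2). MALAT1 in LMNB1 against GFP ran from -0.02 (without GFP replicate 3) to 0.09, and was -0.03 with TMM factors from features that are not lncRNA. In ATAC-seq, without 1 library, LMNA against GFP ran from -0.05 to 0.07 (MALAT1) and -0.06 to 0.10 (NEAT1), LMNB1 from -0.03 to 0.11 and -0.02 to 0.14, and LMNB2 at NEAT1 from -0.09 to 0.07. With total counts LMNB2 gave 0.03 (MALAT1) and 0.09 (NEAT1). With the interval of highest count per kb the MALAT1 to NEAT1 ratio differed from GFP by 0.04 for LMNB2 in small RNA, which is a turn of sign. In ATAC-seq it went from 0.01 to 0.09 for LMNA and from -0.01 to 0.10 for LMNB1. With 5000-base flanks, the window over flank went from -0.02 to 0.08 (MALAT1, LMNA), and grew with the same sign from -0.04 to -0.09 (NEAT1, LMNA) and from -0.03 to -0.12 (NEAT1, LMNB2). Parts with under 30 reads give no usable difference at this depth.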
